A study of Mus musculus with 6 samples.

Results

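The genes described here encode the eukaryotic translation initiation factors, together with the kinases and binding proteins that carry an Eif symbol. They were chosen by name: every gene whose single platform symbol starts with Eif followed by a digit was taken, with the Y-linked Eif2s3y left out. This gave 46 of the 18193 named genes on the array, measured by 131 of its 45037 probe sets, and the brightest probe set of a gene, by its mean log2 over the 6 arrays, stood for that gene. The members do not cover every factor. Eif1, Eif2s1, Eif3g, Eif3j, Eif4g1 and Eif4ebp3 were among those not paired with a probe set of their own and were not analysed here.

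The cells were bone marrow macrophages of C57BL/6 mice, either wild type (WT) or knockin (KI), with 3 arrays for each genotype. Both groups had received M-CSF at 44 ng/ml, which sustains macrophage precursors, and RANKL at 100 ng/ml, which starts osteoclast formation, for 24 hours. The title of the series names the IVVY motif of RANK, the receptor for RANKL, while the labels leave out which residues were altered, the age of the mice and whether the replicates came from separate mice. The question was which of these genes differed in level between the genotypes.

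Initiation brings a ribosome to the start codon of a messenger RNA. The factor eIF2 carries the initiator tRNA to the small ribosomal subunit with the help of eIF1, eIF1A, eIF3 and eIF5, while the eIF4 factors bind the capped end of the message and unwind it. The step is controlled at the recycling of eIF2 by its exchange factor eIF2B, which phosphorylation of eIF2 by the Eif2ak kinases blocks, and at the cap, where eIF4E-binding proteins hold eIF4E until mTORC1 phosphorylates them. Growing and dividing cells are known for a high demand on this machinery.

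The arrays had median intensities of 83.0 to 84.8 and correlated with each other at 0.972 to 0.998 across probe sets. Of the macrophage markers measured, 5 of 7 rose in KI arrays (Csf1r, Adgre1, Cd68, Itgam and Fcgr1) and 0 fell, and their summed intensity was 97626 to 117683 on WT and 136579 to 141514 on KI arrays. Of the osteoclast markers 6 of 9 fell and 0 rose, with sums of 69341 to 79080 on WT and 32291 to 35938 on KI arrays, while Calcr, a late osteoclast marker, stayed between 15.7 and 21.6 on all 6 arrays. The 7 proliferation genes all had negative differences and 2 of them passed, Rrm2 and Mcm2, with sums of 45511 to 59266 on WT and 24314 to 40890 on KI arrays. WT 1 had the highest proliferation sum and KI 1 the lowest. Neutrophil and progenitor markers, of which 1 of 11 rose (S100a8) and 1 fell (Kit), summed to 16059 to 20082 on WT and 22374 to 43933 on KI arrays, with KI 1 the highest. Stromal markers summed to 2100 to 6941 and 2259 to 8563, with 0 of 5 past the limma threshold and 0 at an unadjusted p under 0.05. Mast cell, B cell, T and NK cell and erythroid markers had 4 genes each below 100 on every array, of 4, 5, 5 and 4 measured, and 0 of them passed limma's test, with 1 (Ms4a2) at an unadjusted p under 0.05. The macrophage, osteoclast, proliferation and neutrophil sums moved with genotype, and their part in the results below was not tested.

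Most initiation factor genes were lower in KI cells. In limma's test, adjusted by the Benjamini-Hochberg method over all 18193 genes with a threshold of 0.05, 27 of the 46 fell, 1 rose and 18 did not pass. The share of members that fell was 58.7%, while 14.9% of all genes fell, and the share that rose was 2.17% against 11.9% of all genes. In either direction 26.8% of all genes were called, so that differences between these genotypes were common on the array as a whole. The median log2 difference, KI minus WT, was -0.26 for the members and -0.0013 for all genes, and it was negative for 38 of 46 members (82.6%) and for 50.2% of all genes.

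The falls were mostly small. Of the 27 genes that fell, 18 fell by less than 0.5 on the log2 scale, 5 by 0.5 to 1, and 4 by at least 1, which are Eif1ad, Eif2b3, Eif4ebp1 and Eif6. A fall of at least 2-fold that also passed was found for 2.59% of all genes. The KI and WT arrays did not overlap for 33 of the 46 members (71.7%), 31 of them lower in KI and 2 higher, and for 45.2% of all genes. Initiation factor genes were bright, with 45 of 46 above the median gene, and bright genes were called more often. Among the 10941 genes above the median of all probe sets, 27.7% fell and 21.3% rose, and 28 of the 45 members tested there fell and 1 rose.

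**Figure D1:**
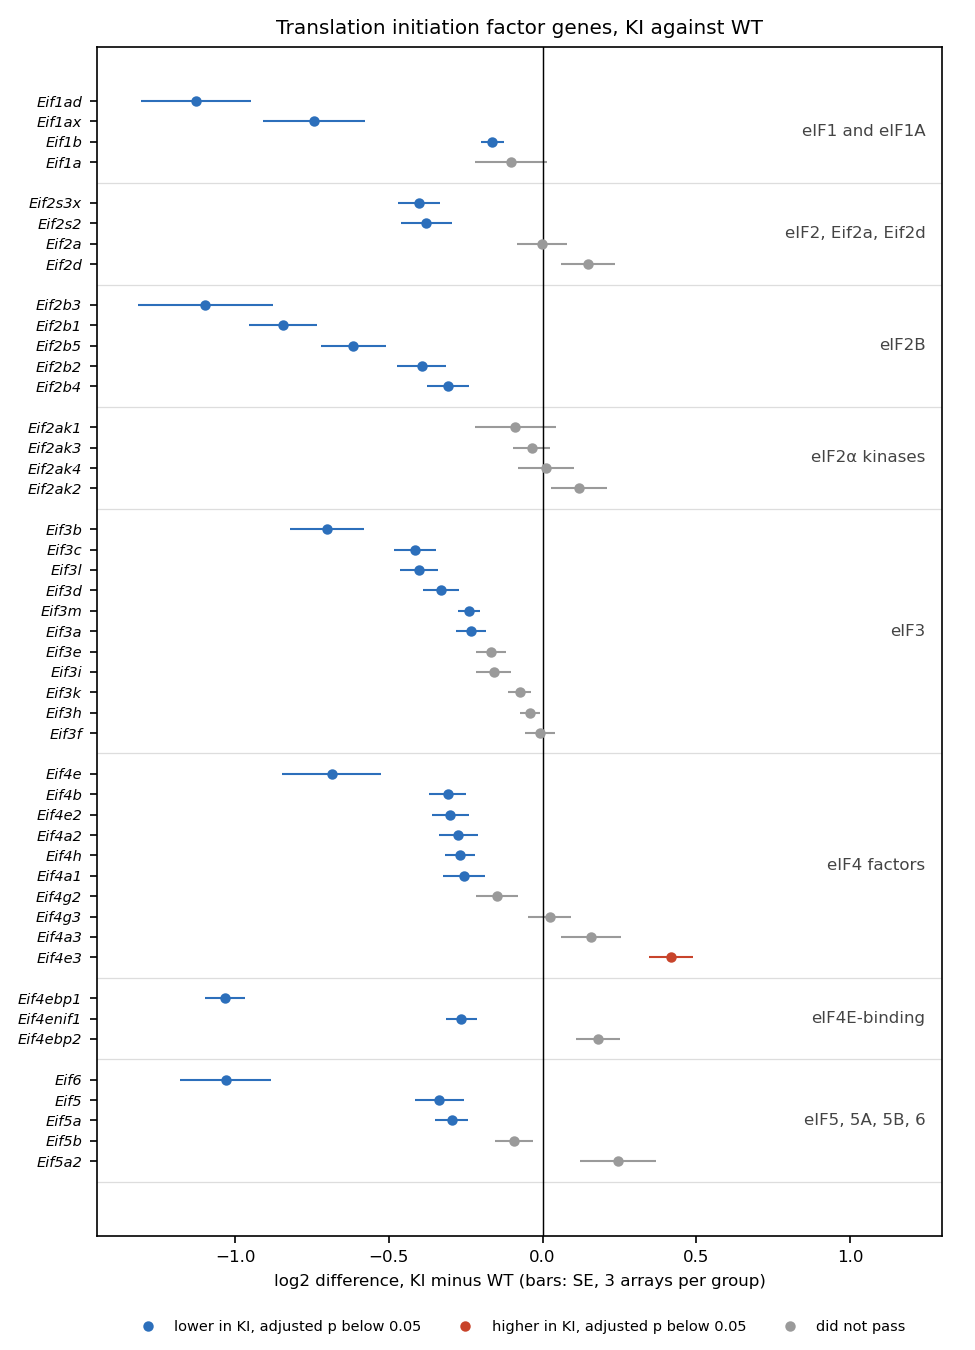
The log2 difference between KI and WT arrays is plotted for each of the 46 genes, grouped by factor complex, with bars for the standard error of the fit over 3 arrays per genotype. Blue points fell, red points rose and grey points did not pass. The 5 eIF2B genes lie left of zero and passed, the 4 eIF2 kinase genes lie around zero, and Eif4e3 is the red point.

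These counts depended on single arrays of both groups, most of all on KI 3. With KI 1 left out 16 members fell, with KI 2 left out 16, and with KI 3 left out 6, which were Eif1ad, Eif2b1, Eif3l, Eif3m, Eif4ebp1 and Eif6. The share of all genes that fell, 14.9% with all arrays, was 8.3%, 9.75% and 6.14% in these fits. Without WT 1, WT 2 or WT 3, the count of members that fell was 26, 20 and 18, and 13.1%, 10.8% and 9.85% of all genes fell. With WT 1 and KI 1, the arrays at the ends of the proliferation sums, both left out, 27 members fell, of which 25 were among the 27 of the full set, and 13.3% of all genes fell. The sample descriptions carry a number whose meaning is not stated. It was higher for KI 2 and KI 3 than for every WT sample, so its effect and that of genotype cannot be fully separated. With this number as a covariate 5 members fell: Eif1ax, Eif2b1, Eif4ebp1, Eif5a and Eif6. In that fit 5.3% of all genes fell. The median difference of the members moved little when 1 array was left out, between -0.28 and -0.23. Eif4ebp1 was past the threshold in all 18 alternatives, and no other called member was. Eif2b1 and Eif6 each missed it in 1 alternative only, the fit with the replicate number as a block.

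The values are relative to the scale of the deposited table. Scaling each array to the newer hybridisation control probe sets, which report foreign transcripts added before hybridisation, moved the median of all genes by -0.20, and scaling to the older set moved it by -0.51. On those scales 34 members fell and 0 rose, with 27.2% and 45.1% of all genes falling. The RNA came from whole cultures, in which fewer cells of a type and less RNA per cell cannot be told apart.

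**Figure D2:**
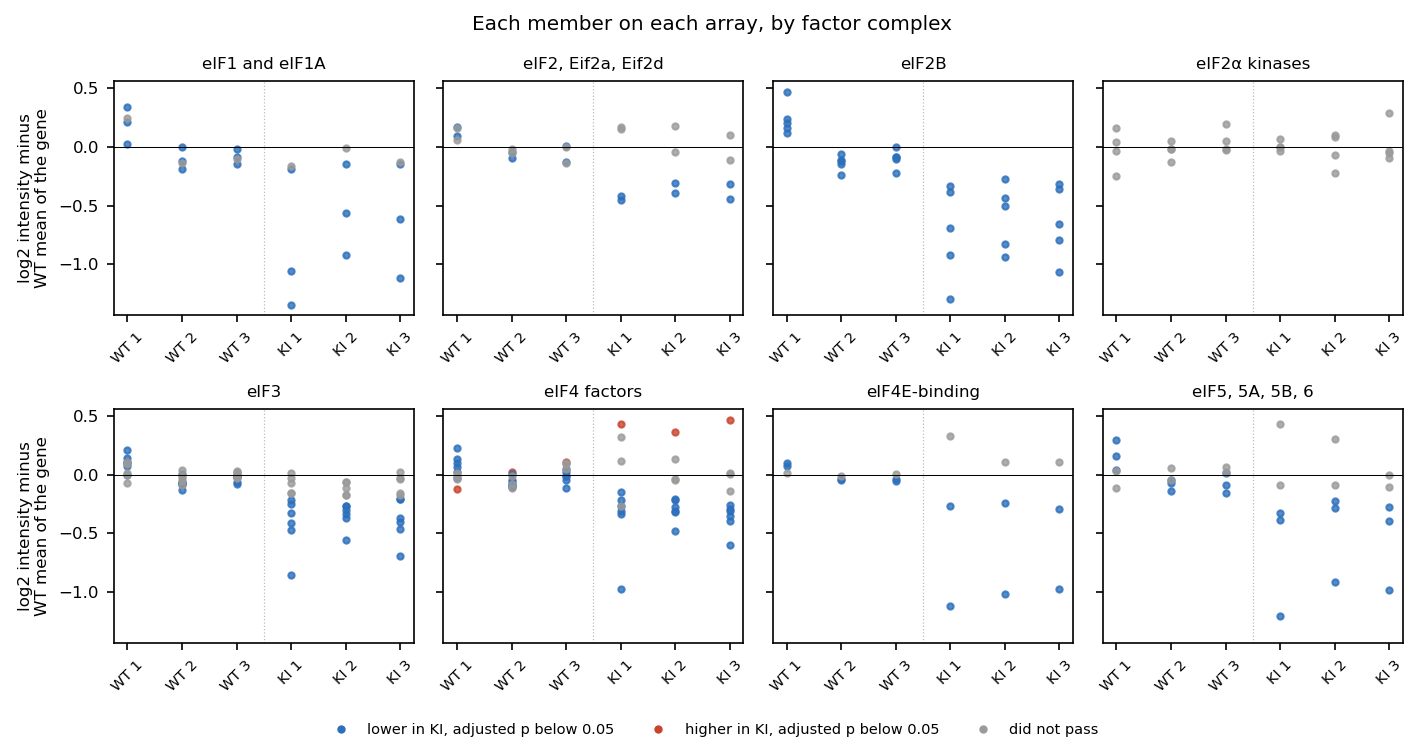
Each point is 1 gene on 1 array, as its log2 intensity minus the mean of that gene over the 3 WT arrays, in a panel for each factor complex. Colours mark genes that fell, rose or did not pass; the eIF2B points lie below zero on every KI array, while the kinase points stay around zero on all 6 arrays.

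The WT arrays were not alike. WT 1 was the highest array for 24 of the 27 genes that fell, and KI 1 the lowest for 17, KI 3 for 7 and KI 2 for 3. Relative to the WT mean of each gene, the median over all 46 members was 0.092 on WT 1, -0.063 on WT 2 and -0.015 on WT 3. It was -0.257 on KI 1, -0.233 on KI 2 and -0.266 on KI 3, and the 3 KI arrays lay below all WT arrays.

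Because most members moved together, their promoters were searched for short motifs. RefSeq promoter windows of 250 bases before the start, on build GRCm38.p6, were found for 37 of the 46 members, 24 of which fell. A gene was counted once, if any of its windows held the motif. There were 32851 windows for 27025 genes, so genes with several windows had more chances. Of 7 motifs searched on both strands, the E-box CACGTG is a binding motif of MYC and of the MiT family of factors. It was found for 8 of 37 members (21.6%) and for 5 of the 24 that fell (20.8%: Eif1b, Eif4a1, Eif4e, Eif4h and Eif5a). The shares were 6.9% of 27025 genes and 10.2% of 8935 bright genes on the array. The E-box was thus no more frequent among the members that fell than among all members. The ETS core CCGGAAG was found for 11 members (29.7%), for 9 of those that fell (37.5%), for 7.8% of all genes and for 16.5% of bright genes. The GC box GGGCGG was found for 27 members (73.0%) and for 20 of the 24 that fell (83.3%), against 35.4% and 64.1%. CCAAT was found for 13 members (35.1%) and for 8 of those that fell (33.3%), against 37.5% and 40.2%. TGACGTCA was found for 0 members, against 1.8% and 3.1%, TGATGNAA for 1 (2.7%), against 3.9% and 2.4%, and AAGATGGC for 1 (2.7%), against 1.8% and 2.6%. These are descriptions of letters in a window, with no test, and motifs can overlap each other.

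Stretches of 4 promoters of genes that fell are shown for the E-box and the ETS core, which were chosen after the counts were seen because their shares among the members exceeded those of all genes by the highest ratios of the 7, with the motif in capitals, each read 5′ to 3′ on its gene's strand. The Eif4e stretch is chr3:138527144-138527239 on the plus strand and has its E-box 64 bases before the start, and the Eif5a stretch is chr11:69920773-69920868 on the minus strand, with its E-box 178 bases before the start. The Eif1ad stretch is chr19:5366596-5366692 on the plus strand, with the reverse complement of the ETS core 157 bases before the start, and the Eif3c stretch is chr7:126566367-126566460 on the minus strand and holds 2 such cores, the nearer 34 bases before the start.
Eif4e: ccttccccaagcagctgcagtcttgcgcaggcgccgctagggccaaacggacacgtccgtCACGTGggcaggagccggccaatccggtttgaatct
Eif5a: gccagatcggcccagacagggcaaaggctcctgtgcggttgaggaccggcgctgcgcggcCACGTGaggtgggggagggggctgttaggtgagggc
Eif1ad: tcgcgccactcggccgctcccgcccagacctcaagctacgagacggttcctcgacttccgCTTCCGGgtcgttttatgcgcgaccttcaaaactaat
Eif3c: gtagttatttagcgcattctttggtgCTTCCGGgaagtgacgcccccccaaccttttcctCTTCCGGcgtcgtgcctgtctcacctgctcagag

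Of the 4 eIF1 and eIF1A genes measured, which do not include Eif1 itself, 3 fell. Eif1ad, a gene for a protein related to eIF1A, stood at 4054, 2816 and 2906 on the WT arrays and at 1268, 1694 and 1482 on the KI arrays. The groups did not overlap, and the log2 difference was -1.13 (standard error 0.18, limma adjusted p = 0.0105). Its second probe set fell as well, by 0.98 on the log2 scale. Eif1ax, the X-linked gene of eIF1A, was at 6876, 5442 and 5581 in WT and at 2851, 4020 and 3886 in KI. The difference was -0.74 (standard error 0.16, adjusted p = 0.0258), with every KI array below every WT array. In the fit of all probe sets its 2 dimmer ones did not pass, at -0.52 and -0.17 (limma adjusted p = 0.0634 and 0.434). Eif1b, a paralogue of eIF1, which helps to select the start codon, read 3979, 3914 and 3880 against 3444, 3536 and 3536 and fell by 0.16 (standard error 0.037, adjusted p = 0.0267). Eif1a, an autosomal relative of Eif1ax, was at 2374, 1827 and 1863 in WT and at 1787, 1987 and 1837 in KI, overlapping groups with a difference of -0.10 and an adjusted p of 0.58. The calls of Eif1ax and Eif1b ended when KI 3, WT 2 or WT 3 was left out, that of Eif1ax also without WT 1 and that of Eif1b without KI 1 or KI 2, with adjusted p-values between 0.0548 and 0.0922. With log2 of the intensity plus 32 in place of the floor, Eif1b did not pass either (adjusted p = 0.0639).

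Of the genes for eIF2 and other carriers of initiator tRNA, the 2 subunit genes measured both fell. Eif2s3x, the X-linked gene for the gamma subunit, which binds the tRNA, was at 9606, 8417 and 9017 in WT and 6593, 7270 and 6606 in KI. It fell by 0.40 on the log2 scale (standard error 0.069, limma adjusted p = 0.0126), and no KI array reached a WT array. Its Y-linked copy, together with Uty and Kdm5d, stayed at 27.4 or below on all arrays, while Xist lay between 14300 and 15887. Eif2s2, for the beta subunit, was at 13549, 11748 and 11072 against 9030, 9175 and 9685 and fell by 0.38 (standard error 0.083, adjusted p = 0.0254). Eif2a and Eif2d, which encode factors that can place a tRNA without eIF2, did not pass. Eif2d read 943, 831 and 768 in WT and 949, 952 and 907 in KI (difference 0.15, adjusted p = 0.277), and Eif2a differed by -0.0011. The difference of Eif2d had the opposite sign, -0.06, when scaled to the newer control probe sets. The call of Eif2s3x ended without KI 3 (adjusted p = 0.0573), and that of Eif2s2 without any one of KI 1, KI 2, KI 3 and WT 2 (0.0619 to 0.081).

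All 5 genes of eIF2B, the exchange factor that recharges eIF2, fell, with a median difference of -0.62. Eif2b1, for the alpha subunit, was at 2439, 1880 and 1951 in WT and 1099, 1172 and 1198 in KI, a 1.80-fold difference (log2 -0.85, standard error 0.11, limma adjusted p = 0.0066). Eif2b3, for the gamma subunit, was at 1966, 1206 and 1220 against 583, 746 and 680, and WT 1 stood well above the other WT arrays. It fell by 1.10 on the log2 scale (standard error 0.22, adjusted p = 0.0195). Eif2b5 encodes the epsilon subunit, which carries the exchange activity. It read 2872, 2299 and 2351 in WT and 1548, 1760 and 1585 in KI and fell by 0.62 (standard error 0.11, adjusted p = 0.0126). Eif2b2 (-0.39, adjusted p = 0.0202) and Eif2b4 (-0.31, adjusted p = 0.026), for the beta and delta subunits, fell less, and no gene of the complex had overlapping groups. Relative to each gene's WT mean, the median of the 5 genes was 0.20, -0.12 and -0.09 on the WT arrays and -0.69, -0.50 and -0.65 on the KI arrays. Without KI 3 the call of Eif2b1 held and those of the other 4 ended (adjusted p 0.0568 to 0.0912). Without KI 1 those of Eif2b2, Eif2b3 and Eif2b4 ended, without KI 2 those of Eif2b2 and Eif2b4, and without WT 3 that of Eif2b4, within the same range. That of Eif2b4 also ended without WT 1 and KI 1 together (adjusted p = 0.0556).

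The 4 kinases that phosphorylate eIF2 in stress did not pass limma's test, 0 of them had an unadjusted p under 0.05, and their WT and KI arrays overlapped. Eif2ak1, the haem-regulated kinase, was at 634, 779 and 860 in WT and 752, 643 and 732 in KI (log2 -0.09, adjusted p = 0.683). Eif2ak2, the kinase PKR that senses double-stranded RNA, was at 1107, 1121 and 1176 against 1108, 1218 and 1383 (0.12, adjusted p = 0.408). Both sets of values overlapped, and KI 3 was the highest array for Eif2ak2. Eif2ak3, the kinase PERK of the endoplasmic reticulum, was at 1572, 1505 and 1509 against 1598, 1452 and 1430 (-0.04, adjusted p = 0.724), and Eif2ak4, the kinase GCN2 that senses uncharged tRNA, was at 587, 483 and 516 against 526, 558 and 509 (0.01, adjusted p = 0.963). On the scales of both control probe sets the differences of Eif2ak2 and Eif2ak4 were negative.

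Of the 11 genes measured for subunits of eIF3, the large scaffold on the small ribosomal subunit, 6 fell. The other 5 also had negative differences without passing. Eif3m read 4396, 4397 and 4393 in WT and 3701, 3662 and 3812 in KI, with a difference of -0.24 (standard error 0.036, limma adjusted p = 0.00946). Eif3l read 12072, 10676 and 11191 against 8166, 8946 and 8565, with a difference of -0.40 (standard error 0.062, adjusted p = 0.0099). In both the lowest WT array stood above the highest KI array. The probe sets of Eif3m can match several transcripts, and Eif3m was absent from the fit without such probe sets. Eif3c, one of the core subunits, was at 15036, 12992 and 13074 against 10251, 10575 and 9930 (log2 -0.42, adjusted p = 0.0119). Eif3b, another core subunit, had the largest fall of the complex, from 6062, 4785 and 4948 to 2901, 3562 and 3238 (log2 -0.70, standard error 0.12, adjusted p = 0.0128). Eif3d, which can bind the cap of some messages, and Eif3a, the core subunit on which the complex is built, fell by 0.33 and 0.23 (adjusted p = 0.0147 and 0.0222). For Eif3a all 4 probe sets were negative, at -0.23, -0.37, -0.45 and -0.69 from the brightest to the dimmest, of which the first 2 passed.

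The eIF3 genes that did not pass included Eif3e, a subunit that is deleted or shortened in some tumours. It stood at 13427, 12116 and 12332 in WT and 11305, 11157 and 11198 in KI, groups that did not overlap, with a difference of -0.17 (adjusted p = 0.0565). In the fit of all probe sets, 2 further bright probe sets of Eif3e passed, at -0.21 and -0.20. Eif3i, Eif3k and Eif3h also did not overlap, at -0.16, -0.07 and -0.04 (adjusted p = 0.0996, 0.214 and 0.438), and Eif3f overlapped at -0.01 (adjusted p = 0.919). Without KI 3 the calls of Eif3a, Eif3b, Eif3c and Eif3d ended (adjusted p 0.0546 to 0.0741). That of Eif3a also ended without KI 1, KI 2 or WT 3, within the same range.

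Of the 10 genes of the eIF4 cap-binding, helicase and scaffold group, 6 fell and 1 rose. Eif4e, the cap-binding subunit, was at 9445, 7520 and 7463 in WT and 4114, 5788 and 5352 in KI. KI 1 was the lowest array, the groups did not overlap, and the difference was -0.69 (standard error 0.16, limma adjusted p = 0.0301), a 1.61-fold fall. Leaving out WT 1, WT 2, WT 3, KI 1 or KI 3 ended that call (adjusted p 0.058 to 0.0796), and without KI 1 the difference was -0.54. The 3 dimmer probe sets of Eif4e did not pass in the fit of all probe sets, at -0.74, -0.83 and -0.06. Eif4e3, an atypical cap-binding relative of eIF4E, was the member that rose, from 1137, 1252 and 1328 to 1670, 1590 and 1700. Its difference was 0.42 (standard error 0.072, adjusted p = 0.0127) and its second probe set gave 0.29 without passing (adjusted p = 0.121). Without KI 3 the rise did not pass (adjusted p = 0.0597), nor did it on the newer control scale (adjusted p = 0.0562), and on the older one the difference was -0.11.

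Eif4h and Eif4b encode cofactors of the helicase eIF4A. Eif4h was at 15121, 14034 and 14348 in WT and 11504, 12495 and 12108 in KI (log2 -0.27, limma adjusted p = 0.016). Eif4b was at 7986, 7541 and 8128 against 6778, 6345 and 6001 (-0.31, adjusted p = 0.0183). In both, all KI arrays lay below all WT arrays, and the 3 probe sets of Eif4b passed. Eif4h was the only member with probe sets past the threshold in both directions, since a dim one (mean log2 6.41) rose by 0.46 (adjusted p = 0.0418) while 4 others fell. Eif4e2, a cap-binding repressor, fell by 0.30 (adjusted p = 0.0185), and Eif4a2, a helicase paralogue, by 0.27 (adjusted p = 0.028). Of the 5 probe sets of Eif4e2 only the brightest passed, and the 4 dimmer ones lay between -0.31 and 0.28.

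Eif4a1, the main eIF4A helicase, read 24319, 20828 and 21519 in WT and 18427, 19242 and 18098 in KI. It fell by 0.25 (standard error 0.068, limma adjusted p = 0.0438), the weakest of the called falls by adjusted p. None of its 3 probe sets passed in the fit of all probe sets, and with quantile normalization its adjusted p was 0.0625 and that of Eif4a2 0.0695. The call of Eif4a1 also ended without an intensity trend in eBayes (0.0504) and without WT 1 and KI 1 together (0.0664). Eif4g2, a scaffold that does not bind eIF4E, and Eif4g3 did not pass (-0.15, adjusted p = 0.172, and 0.02, adjusted p = 0.857). Eif4a3, a helicase of the exon junction complex, was dim, at 36.8, 33.6 and 38.9 in WT and 45.5, 39.8 and 36.8 in KI (0.16, adjusted p = 0.303). The calls of Eif4h, Eif4b, Eif4e2, Eif4a2 and Eif4a1 ended without KI 3 (adjusted p = 0.064, 0.0643, 0.0741, 0.0914 and 0.137), and all but that of Eif4h ended without KI 2 (0.0529 to 0.0855). Without KI 1 those of Eif4e2 and Eif4a1 ended (0.0607 and 0.114). Without WT 1 that of Eif4a2 ended (0.0503), without WT 2 those of Eif4a1 and Eif4a2 (0.0536 and 0.0806), and without WT 3 those of Eif4b, Eif4e2, Eif4a1 and Eif4a2 (0.0531 to 0.0824).

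The eIF4E-binding repressors did not move alike. Eif4ebp1, the best known of the proteins that hold eIF4E and are released from it by mTORC1, was at 8648, 7798 and 7775 in WT and 3727, 3981 and 4119 in KI. The groups lay far apart for their spread, a 2.05-fold difference (log2 -1.03, standard error 0.064, limma adjusted p = 0.00128). All 3 of its probe sets fell, at -1.03, -0.87 and -0.47, and its adjusted p over the 18 alternatives ranged from 5.43e-08 to 0.046. Eif4enif1, for a carrier that takes eIF4E into the nucleus and to processing bodies, was at 1799, 1666 and 1665 against 1421, 1449 and 1399 (log2 -0.26, adjusted p = 0.0178). Its call ended without KI 1, KI 2 or KI 3 (adjusted p = 0.0568, 0.0514 and 0.0769). Eif4ebp2 was at 1852, 1817 and 1844 in WT and 2304, 1973 and 1984 in KI, groups that did not overlap, with a difference of 0.18 and an adjusted p of 0.129. On the newer and older control scales that difference was -0.03 and -0.35.

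Of the 5 genes for eIF5, eIF5A, eIF5B and eIF6, 3 fell. Eif6, which keeps the ribosomal subunits apart and takes part in making the large one, was at 10496, 7798 and 7697 in WT and 3731, 4560 and 4341 in KI. It fell 2.04-fold (log2 -1.03, standard error 0.15, limma adjusted p = 0.00809), WT 1 was the highest array, and its second probe set fell as well (-0.68). Eif5a, the hypusine-bearing factor that also acts in elongation, was at 27531, 26015 and 27044 against 20531, 22920 and 22233 (log2 -0.30, adjusted p = 0.0149). Its other probe set gave -0.71, a larger fall on the same 6 arrays. Both probe sets can match several transcripts, and Eif5a was absent from the fit without such probe sets. Eif5, which triggers hydrolysis of GTP by eIF2, was at 8666, 7389 and 7291 against 6195, 6355 and 5898 (log2 -0.34, adjusted p = 0.0308). Eif5b, the GTPase of subunit joining, and Eif5a2, a paralogue of Eif5a, did not pass, and Eif5b overlapped (-0.09, adjusted p = 0.342). Eif5a2 was at 255, 241 and 253 in WT and 337, 307 and 249 in KI (0.24, adjusted p = 0.213). The call of Eif5a ended without KI 3 (adjusted p = 0.0556), and that of Eif5 without KI 1, KI 2, KI 3 or WT 2 (0.0838, 0.0681, 0.105 and 0.0584).

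Other probe sets of the genes that fell mostly had the same sign. They were read on the same 6 arrays, for genes picked by their fall, so they are not independent support. Of the 131 probe sets, 49 fell, 2 rose and 80 did not pass in the fit of all 45037. The share of all probe sets called in that fit was not counted, so the counts of probe sets here cannot be judged against it. The fits of genes used 1 probe set per gene and another adjustment, so their shares are not a like measure. In them 14.9% of all genes fell and 11.9% rose, and among bright genes 27.7% fell and 21.3% rose. The 27 genes that fell had 47 probe sets beside the brightest. Of these, 42 lay above the median of all probe sets, and 39 of the 42 had a negative difference, 20 of them past the threshold, while 1 of the 42 rose. Of the 36 genes with several probe sets, 6 had all of them past the threshold in 1 direction (Eif1ad, Eif2b2, Eif4b, Eif4ebp1, Eif5a and Eif6). With the mean over all probe sets of a gene in place of the brightest, 21 members fell, 20 of them among the 27. The calls that ended were those of Eif2b5, Eif3d, Eif3l, Eif3m, Eif4e, Eif4e2 and Eif4h (limma adjusted p 0.059 to 0.298).

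**Figure D3:**
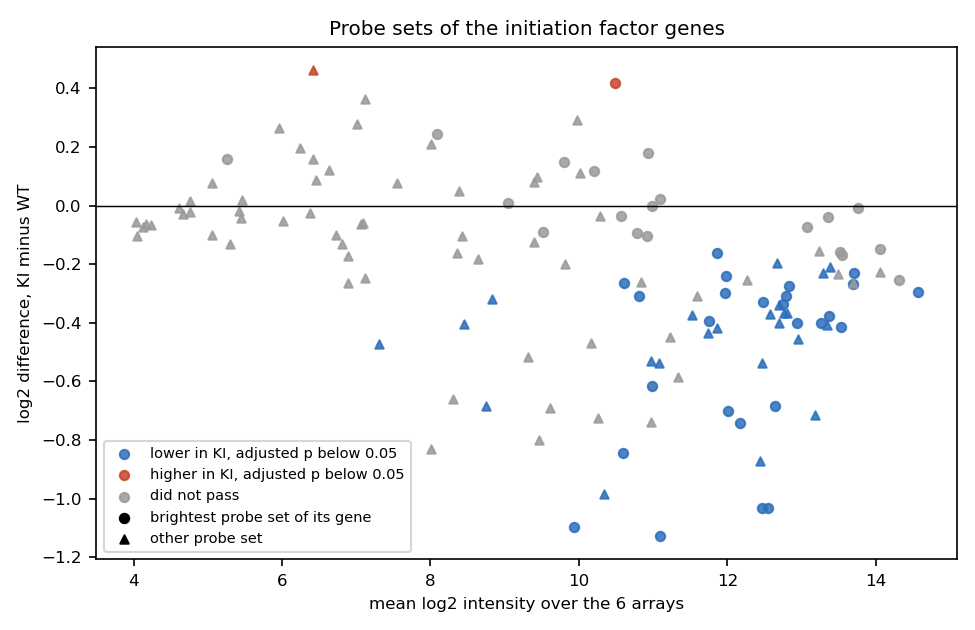
The log2 difference between KI and WT arrays is plotted against the mean log2 intensity for the 131 probe sets of the initiation factor genes, with circles for the brightest probe set of each gene and triangles for the others. Blue points fell, red rose and grey did not pass; the 2 red points are the brightest probe set of Eif4e3 and a dim one of Eif4h.

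Genes of the neighbouring steps were read from the same fit, from lists chosen with earlier results of these data known. For comparison, 14.9% of all genes fell and 11.9% rose, and in the fit of bright genes 27.7% fell and 21.3% rose. Of 8 elongation genes, 4 fell and 0 rose, with a median of -0.12. Eef1e1, a scaffold protein of the tRNA synthetase complex, fell from 6064, 4617 and 4911 to 1531, 2237 and 1916 (log2 -1.46, standard error 0.17, limma adjusted p = 0.00512). Eefsec, which carries selenocysteine tRNA, fell by 0.67, and Eef1d and Eef1b2, subunits of an exchange factor, by 0.56 and 0.14 (adjusted p = 0.00927, 0.0152 and 0.0321). Of 4 termination and recycling genes 2 fell and 0 rose, Abce1, the recycling ATPase, by 1.07 and Gspt1, a release factor, by 0.79 (adjusted p = 0.00851 and 0.0184), with a median of -0.48 for the list. Etf1 did not pass (-0.17). Of 6 poly(A)-binding genes and partners, 3 fell and 0 rose (median -0.09): Pabpc4 by 1.11, Pabpc1 by 0.15 and Pabpn1 by 0.40 (adjusted p = 0.00618, 0.0209 and 0.035).

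Of 13 genes of the mTORC1 pathway and of kinases of initiation factors, 2 fell and 2 rose, with a median of -0.07. Both counts lay near the shares of all genes that fell and rose, 14.9% and 11.9%. Larp1, which binds messages of the translation machinery under mTORC1 control, fell by 0.81 and Mtor by 0.37 (limma adjusted p = 0.00454 and 0.00817). Tsc2, which restrains mTORC1, rose by 0.32 and Mknk1, a kinase of eIF4E, by 0.96 (adjusted p = 0.0282 and 0.0393). Among bright genes 27.7% fell, and of 10 genes of scanning, reinitiation and the eIF2 phosphatase, 3 fell and 0 rose, with a median of -0.25. These were Ppp1r15a, which directs the phosphatase to eIF2, by 0.63, Denr, a reinitiation factor, by 0.53, and Dhx29, a scanning helicase, by 0.46 (adjusted p = 0.0311, 0.0496 and 0.0379). The 2 mitochondrial initiation factor genes, Mtif3 and Mtif2, did not pass, also not at an unadjusted p under 0.05, with differences of -0.04 and -0.02.

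**Figure D4:**
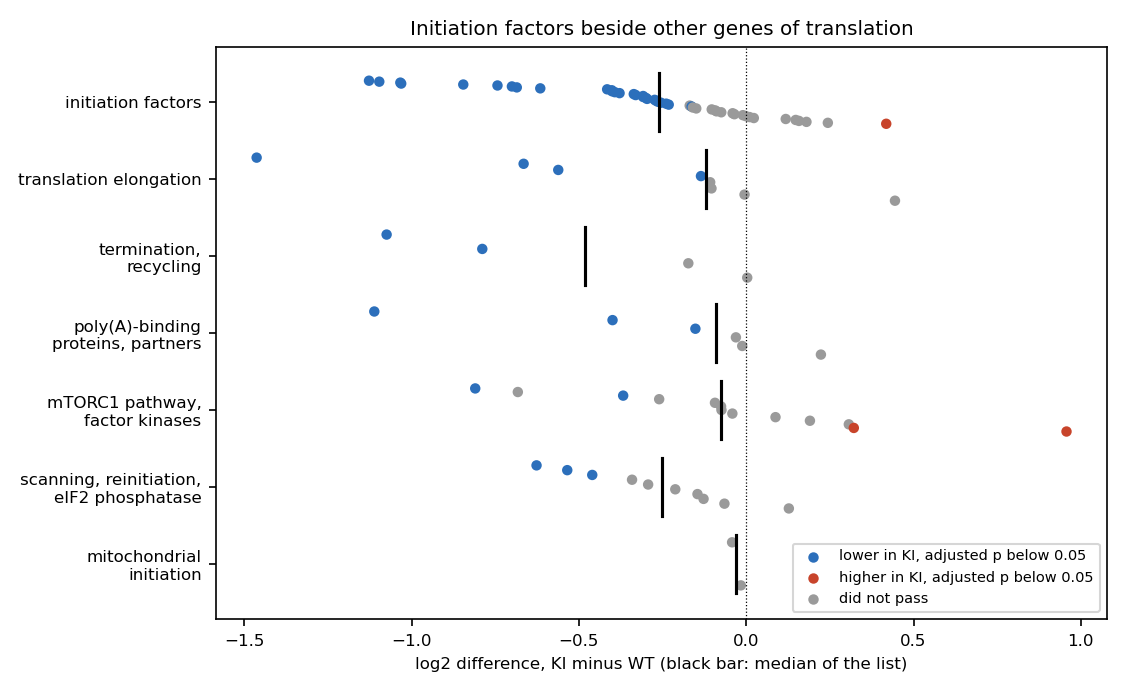
Each point is 1 gene as its log2 difference between KI and WT arrays, for the initiation factor genes and the 6 lists of other genes of translation, with a black bar at the median of each list. Blue points fell, red rose and grey did not pass; the initiation factor genes have a median of -0.26 and the mitochondrial ones lie near zero.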

How the data were processed

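Biotin-labelled copy RNA made from the 3′ end of transcripts was hybridised to Affymetrix mouse arrays of the 430 type, per the labels' protocols, for 3 WT and 3 KI samples. The deposited table held 1 linear intensity for each probe set and array. Per the submitters' processing notes it was made with Affymetrix Expression Console; version, summarisation and normalization: not given in the sources used here. Judged by their near-equal medians, the arrays were taken as already normalized. Of 45101 probe sets, 64 controls were left out, and 34945 had 1 gene symbol in the platform annotation, 932 had several and 9160 had none; 6 that name an Eif gene together with another gene were not used. Intensities were floored at 16 (5.46% of values lay below it) and log2 transformed. KI was compared with WT in limma 3.58.1 (R 4.3.3; lmFit, eBayes with an intensity trend, no block), on 18193 genes and separately on all 45037 probe sets, with Benjamini-Hochberg adjustment and a threshold of 0.05. The steps were tested on simulated data. Probe sets of different genes were not compared in level. The labels do not say whether replicates were separate mice, so p-values measure only the spread between these samples, which may be technical, and the number of arrays limits precision.

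The members and gene lists were chosen with earlier results of these data known. Every member past the threshold is named; array values are given for the 3 with the smallest p in each complex, those changed at least 2-fold, and a set of regulators and core factors; each list of other translation genes gives up to 3 with the smallest p, and markers are given as sums and counts. Outside that rule, the array values of Eif1a, Eif3b, Eif4a3 and Eif5a2, and the names Mknk1, Eef1b2 and those of single markers, were chosen after their values were seen. Alternatives were other normalizations, offsets, filters and probe set choices, other designs, and arrays left out. Promoter windows are RefSeq's.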

Additional observations from a re-analysis of the deposited data

How the results depend on the processing

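All 18 alternatives were fitted. Of the 28 called members, 27 kept their direction in every alternative in which they were fitted, the exception being Eif4e3. Eif3m and Eif5a were fitted in 17 of the 18. Of the called members 1, Eif4ebp1, stayed past the threshold in all 18. The cause of each change below was not tested. Leaving out 1 array gave 6 to 26 members lower, 0 to 1 higher and 2011 to 4381 genes called. Over these fits Eif1a ranged from -0.171 to 0.0184, Eif2a from -0.0774 to 0.0544, Eif2ak1 from -0.211 to 0.0081, Eif2ak4 from -0.0531 to 0.0882, Eif3f from -0.0452 to 0.0182 and Eif4g3 from -0.0246 to 0.0678. With spike-in scaling 0 members were higher and their median was -0.47, with Eif2ak2 at -0.0879, Eif2ak4 -0.20, Eif2d -0.0582, Eif4a3 -0.0484, Eif4ebp2 -0.026 and Eif4g3 -0.18. With the older spike-in set 0 were higher, 8619 genes were called and the median was -0.79, with Eif2ak2 at -0.41, Eif2ak4 -0.52, Eif2d -0.38, Eif4a3 -0.37, Eif4e3 -0.11, Eif4ebp2 -0.35, Eif4g3 -0.51 and Eif5a2 -0.29. The mean over probe sets gave a median of -0.18, with Eif4g3 at -0.0040, and 21 members lower. Quantile normalization gave Eif2a 0.0243 and Eif3f 0.0169. Same-numbered arrays of the 2 groups deviated with r of -0.27, -0.17 and -0.20, so the numbers were not taken as pairs; the replicate block left 1 member lower, 0 higher and 344 genes called. The description number as covariate left 5 lower, 0 higher and 1671 genes called, with Eif2a at 0.145, Eif2ak2 -0.0458, Eif2ak3 0.0615 and Eif3f 1e-04. Without WT 1 and KI 1, Eif1a was at 0.0504 and Eif4g3 at -0.0299. Eif4a3 was the member near background, which limits what could be detected for it.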
